A study of Mus musculus with 4 samples.

Results

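Secreted neuropeptide genes were followed in primary mouse astrocyte-enriched cultures (AECs) after oxygen–glucose deprivation (OGD). The 10 genes, *Tac1*, *Prok2*, *Penk*, *Npy*, *Sst*, *Adcyap1*, *Scg2*, *Vgf*, *Cck* and *Vip*, were taken by name from the 29676 gene names on the array, with every probe that carries the name. Each gene had 1 probe. The list was drawn up around *Tac1* and *Prok2*, whose signals differed most between the groups among the 10, so the values of the 10 genes are given below as a description and no test was made of them.

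AECs came from the cerebral cortex of newborn ICR mice, with several pups pooled and taken without regard to sex, and all cultures had been treated with PLX3397, an inhibitor of the CSF1 receptor, to deplete microglia. One group was left untreated (n = 2 arrays). The other was kept for 15 h in medium without glucose under hypoxia (n = 2 arrays), a culture model of ischemia. Total RNA was labeled with Cy3 and hybridized to single-color 60-base oligonucleotide arrays. According to the methods, the wells held cells of separate cultures from different pups, so the spread between the 2 arrays of a group is taken as that between cultures.

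Neuropeptides are made as larger precursors, which pass through the secretory pathway, are packed into dense-core vesicles with granins, and are cut by prohormone convertases, trimmed by carboxypeptidases and often amidated before release. Once released, they act mostly on G protein-coupled receptors and are broken down by peptidases on the cell surface. Most are known from neurons and endocrine cells, but cultured astrocytes are known to make several of them, including enkephalin, neuropeptide Y and secretogranin II. Several of these genes are classical targets of the cAMP response element binding protein, CREB.

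The probes that carried the largest differences are shown first, because each value below is the signal of a single oligonucleotide. Of each 60-base probe the first 30 bases are given, with the position of the whole probe on mm9 as the array's headers state it. *Tac1* encodes the precursor of substance P and neurokinin A and was read at chr6:7512893-7512952. *Prok2* encodes prokineticin 2 and was read at chr6:99661399-99661458 on the reverse strand. The probes of *Tacr1*, the substance P receptor (chr6:82509613-82509672), and *Prokr1*, a prokineticin receptor (chr6:87529095-87529154, reverse strand), are shown beside them because they changed in opposite directions.
Tac1 probe: gtttcaatgtaattctctggtcttcagtca
Prok2 probe: ctttatttgtaacccaaaggtctaatgtaa
Tacr1 probe: accatttaacttgtaaaaatgtcgtcaatt
Prokr1 probe: atttcccagaaaacacatttcaaaggacca

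The other probes lie at chr4:4060724-4060783 (*Penk*), chr6:49773743-49777505 (*Npy*), chr16:23889776-23889835 (*Sst*), chr17:93604401-93604460 (*Adcyap1*), chr1:79431323-79431382 (*Scg2*), chr5:137509153-137509212 (*Vgf*), chr9:121398943-121399002 (*Cck*) and chr10:4699238-4699297 (*Vip*). The *Npy* probe spans 3763 bases of genome for its 60 bases, so its match is split on the genome. The exon and UTR that each probe lies in were not assigned, since the annotation at hand is of another build.

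The arrays differed as a whole between the groups, which bears on every value. All 4 were on 1 slide and in 1 scan. The share of the 43020 non-control spots that stood well above background was 73.0% to 73.7% for untreated and 64.5% to 66.2% for OGD arrays, and none was saturated. The 75th percentile of the processed signal came to 2135 and 2164 for the untreated and to 887 and 776 for the OGD arrays, a log2 difference of −1.37. In contrast, 9 spiked-in control probes differed by −0.085 on average, and singly by −0.75 to 0.28. Small differences on the scale of the spike-ins are therefore uncertain in direction. Signals were scaled to the 75th percentile of each array, and "normalized log2 signal" below is log2 of a signal relative to that percentile. On this scale the median of all 28163 probes tested differed by 0.18 between OGD and untreated AECs, and on the scale of the spike-ins by −1.11. By limma, described below, 65.1% of these probes passed the limit, 38% higher and 27.1% lower, as did 65% of genes. A rise on the first scale can therefore go with an equal or lower processed signal. Both are given for the neuropeptide genes above background. For other named genes whose direction changed, the spike-in difference is given, for some only in the section on processing. In cultures, a change in the number of cells of a type and a change in RNA per cell cannot be told apart.

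Each of the 15 astrocyte markers stood well above background on every array. Their summed normalized signal was 212 to 237 times the 75th percentile in untreated AECs and 317 to 328 times after OGD, while the sum of their processed signals was 458700 to 505338 and 246376 to 290715. By limma 8 of the 15 were higher and 1 lower, against 37.1% and 27.9% of all genes, with a median difference of 0.54. Markers of other cells were present too. Among the 20 neuron markers, 15 stood well above background on each array, 18 on both untreated and 15 on both OGD arrays, with a normalized sum of 31.9 to 33.9 untreated and 36.4 to 40.0 after OGD and a processed sum of 68958 to 72355 and 31043 to 32325. Of 18 neuron markers tested 8 were higher and 3 lower by limma, against 37.1% and 27.9% of all genes, with a median difference of 0.32. *Nefl* (1.95) and *Dlg4* (1.59), named after their values were seen, were at 0.66 and 0.30 on the spike-in scale. Those lower, named likewise, included *Dlx1* (−0.99), at −2.27 on the spike-in scale and 0.05 with another background correction. *Rbfox3* was lower too, by at least 1.52-fold, and was not well above background after OGD. *Slc17a7*, the vesicular glutamate transporter of cortical excitatory neurons, was not well above background on any array. For microglia, 8 of 12 markers stood well above background on each array, and their normalized sum was 4.99 to 5.38 untreated and 11.54 to 11.8 after OGD, against a processed sum of 10798 to 11479 and 8957 to 10466. Of 11 microglia markers tested 4 were higher and 2 lower by limma, against 37.1% and 27.9% of all genes, with a median difference of 0.36. *Cd68*, named after its values were seen, went from 1157 and 1213 to 4301 and 3778. For fibroblast and endothelial markers, 7 stood well above background on each array, and *Cldn5* was so on none. Their normalized sum was 11.8 to 13.5 untreated and 9.20 to 11.7 after OGD, and the processed sum was 25589 to 28926 and 7144 to 10350. Of 7 tested, 0 were higher and 2 lower by limma, against 37.1% and 27.9% of all genes. Oligodendrocyte lineage markers had a normalized sum of 36.5 to 38.8 untreated and 44.0 to 45.6 after OGD, while the sum of their processed signals went from between 78888 and 82937 to between 35408 and 38979. Of these 12 markers 5 were higher and 4 lower by limma, against 37.1% and 27.9% of all genes. Those lower were *Olig2* (−2.50), *Pdgfra* (−1.27), *Sox10* (−0.76) and *Olig1* (−0.49), named after their values were seen. The part of these cells in the values below was not tested.

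After 15 h of OGD, 9 of the 10 neuropeptide genes had a higher normalized signal on both OGD arrays than on both untreated arrays and none a lower one, against 49.2% and 35.5% of all probes tested, and *Vip* was not well above background on any array. The sizes differed widely. *Tac1* and *Prok2* differed by over 70-fold, *Penk*, *Npy*, *Adcyap1*, *Scg2*, *Vgf* and *Cck* by 1.87-fold to 3.52-fold, and *Sst* lay too near background on the untreated arrays to be placed. On the spike-in scale, 5 of the 9 were above and 3 below the untreated arrays, against 6.21% and 88.2% of all probes, and *Adcyap1* overlapped.

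**Figure D1:**
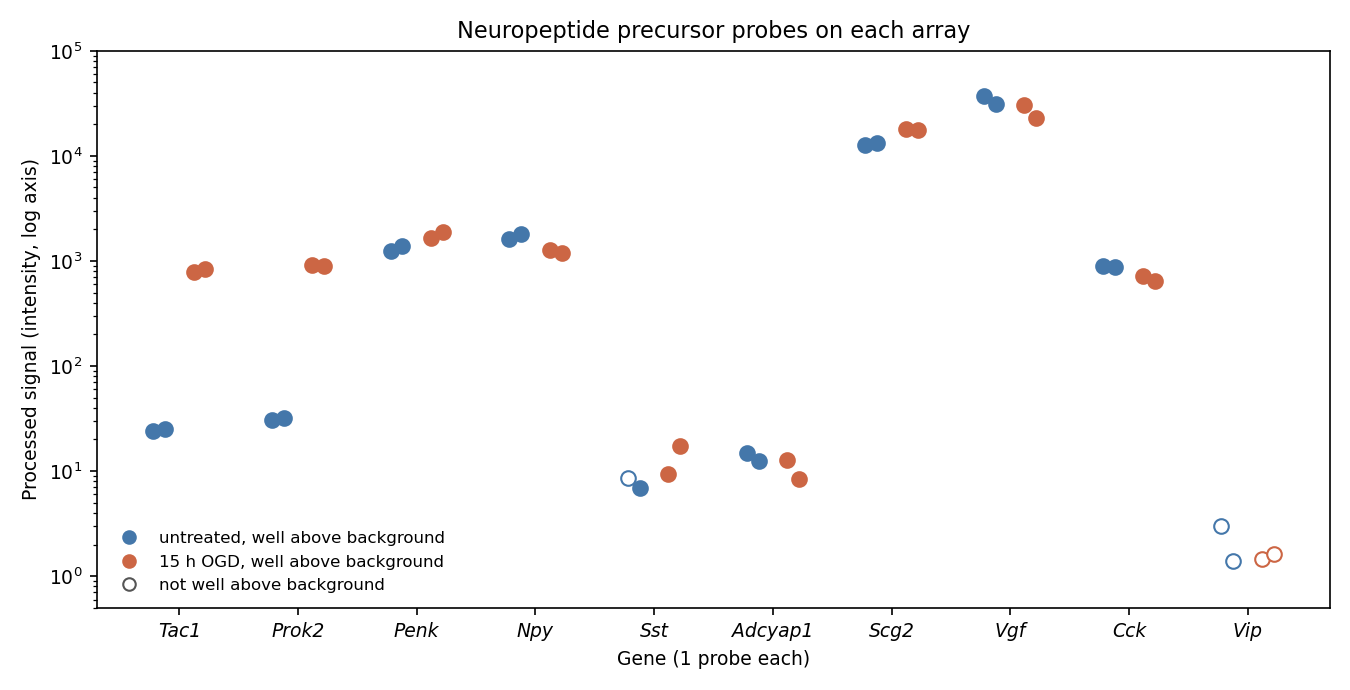
Processed signal of the 10 neuropeptide genes on each array (log axis), with 2 untreated and 2 OGD arrays per gene. Filled points were well above background on that array and open points were not. The OGD points of *Tac1* and *Prok2* lie 33.0-fold and 28.5-fold above the untreated points on average, while those of *Npy*, *Vgf* and *Cck* lie below them. Heights are not comparable between genes, since each probe binds differently.

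*Tac1* had processed signals of 24.1 and 25.2 in untreated AECs and of 787 and 842 after OGD. The groups did not overlap, and the signal itself, before any scaling, was 33.0-fold higher after OGD. The normalized log2 signal went from −6.45 ± 0.033 (SD, n = 2) to −0.03 ± 0.20 (SD, n = 2), a difference of 6.42, or 85.5-fold. The difference was 5.13 on the spike-in scale and 4.64 with another background correction (normexp, offset 50), which adds a constant to every spot and so narrows the distance of dim spots. All 3 differences were rises. For comparison, the lowest signals that counted as well above background were 6.33 to 7.34 on the 4 arrays.

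*Prok2*, whose peptide signals through Gq-coupled receptors and is known in the olfactory bulb and the circadian system, was at 30.8 and 32.4 untreated and at 915 and 888 after OGD. Both OGD values were far above both untreated values, 28.5-fold by the processed signal. The normalized log2 signal went from −6.09 ± 0.035 (SD, n = 2) to 0.12 ± 0.11 (SD, n = 2), a difference of 6.21, or 73.9-fold. It was 4.92 on the spike-in scale and 4.58 with normexp. *Tac1* and *Prok2* thus moved from near background to about the 75th percentile of the array, and leaving out any 1 array kept their differences at 6.27 to 6.56 and 6.13 to 6.28. Only 0.813% of all probes tested were over 10-fold higher and past the adjusted p of 0.05, a class these genes were chosen from.

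*Penk*, the precursor of the enkephalins and the opioid peptide gene best known from astrocytes in culture, was at 1243 and 1374 untreated and at 1647 and 1869 after OGD. The processed signals rose on both OGD arrays. The normalized log2 signal went from −0.72 ± 0.089 to 1.08 ± 0.26 (SD, n = 2 each), a difference of 1.80 or 3.48-fold, and the difference was 0.51 on the spike-in scale. *Scg2*, which encodes secretogranin II, a granin that is also cut to the peptide secretoneurin, was bright throughout, at 12672 and 13391 untreated and 17912 and 17544 after OGD. Its normalized log2 signal went from 2.60 ± 0.043 to 4.42 ± 0.11 (SD, n = 2 each), a difference of 1.82 or 3.52-fold. The groups did not overlap on either scale, with 0.53 on that of the spike-ins, and quantile normalization gave 1.34.

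*Vgf*, a granin-like precursor induced by neurotrophins, was at 36984 and 31024 untreated and 30533 and 22921 after OGD. Its processed signals were thus lower on both OGD arrays, while its normalized log2 signal was higher, at 3.98 ± 0.19 and 4.99 ± 0.16 (SD, n = 2 each). The difference was 1.02 or 2.02-fold by the 75th percentile and −0.27 on the spike-in scale, and quantile normalization narrowed it to 0.34. Whether *Vgf* was higher or lower after OGD therefore depends on the scaling.

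The same held for *Npy* and *Cck*. *Npy*, the precursor of neuropeptide Y, was at 1605 and 1809 untreated and 1264 and 1192 after OGD. Its normalized log2 signals were −0.33 ± 0.11 and 0.57 ± 0.076 (SD, n = 2 each), a difference of 0.90 or 1.87-fold, against −0.39 on the spike-in scale. *Cck*, the precursor of cholecystokinin, was at 898 and 882 untreated and 724 and 642 after OGD. Its normalized log2 signals were −1.27 ± 0.032 and −0.28 ± 0.012 (SD, n = 2 each), a difference of 0.99 or 1.98-fold, against −0.30 on the spike-in scale. Both genes fell in processed signal, but by less than the 75th percentile of the arrays did.

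3 genes were dim. *Sst*, the precursor of somatostatin, had 10 spots of its probe on each array, of which 4 and 5 stood well above background without treatment and 9 and 10 after OGD. It entered the set of probes tested only through the OGD arrays, since it was not above background on 1 untreated array. Its processed signal was 8.64 and 6.93 untreated and 9.45 and 17.3 after OGD, so the second OGD array stood apart and the first lay close to the untreated ones. The medians of the 10 spots were 8.23 and 7.91 untreated and 9.94 and 18.1 after OGD. The normalized log2 signals were −8.12 ± 0.24 and −6.02 ± 0.76 (SD, n = 2 each), a difference of 2.10, which rests on an untreated level near background, against 0.81 on the spike-in scale and 1.40 with normexp. Without the first OGD array the difference was 2.63, and without the second 1.57.

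*Adcyap1*, the precursor of the peptide PACAP, which raises cAMP through its receptors, was at 15.0 and 12.3 untreated and 12.7 and 8.50 after OGD. It was well above background on all 4 arrays, and its processed signals overlapped between the groups. The normalized log2 signals were −7.30 ± 0.21 and −6.32 ± 0.28 (SD, n = 2 each), a difference of 0.98 or 1.98-fold, against −0.30 on the spike-in scale. *Vip*, the precursor of vasoactive intestinal peptide, was at 3.02, 1.39, 1.47 and 1.63 and not well above background on any array, so no fold is given.

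**Figure D2:**
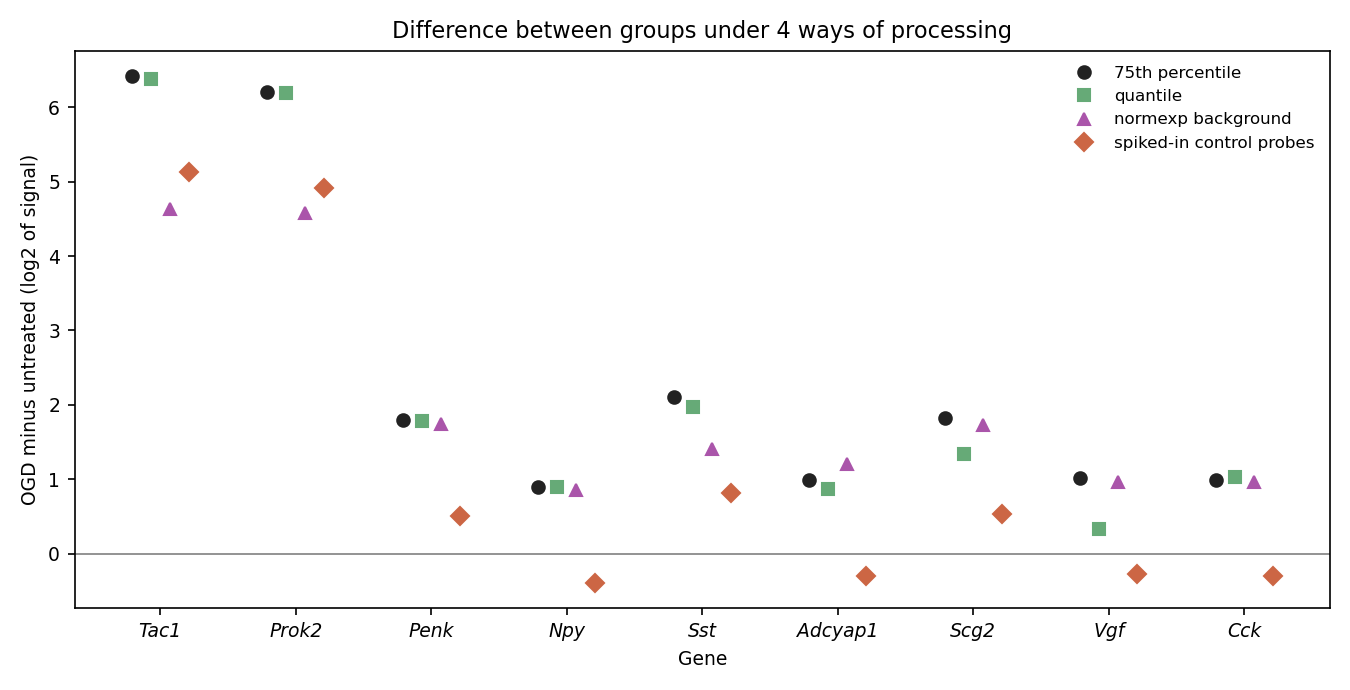
Log2 difference between OGD and untreated AECs for the 9 neuropeptide genes above background, computed with different scalings and background corrections. Each symbol is 1 setting and the line at 0 marks no difference. *Tac1* and *Prok2* stay above 4 in each of them, whereas *Npy*, *Adcyap1*, *Vgf* and *Cck* change sign on the spike-in scale.

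Among the 28163 probes tested, the difference of *Tac1* lay at percentile 99.96, those of *Scg2* and *Penk* at 96.1 and 96.0, and those of *Vgf*, *Cck*, *Adcyap1* and *Npy* at 86.2, 85.3, 85.2 and 82.5. The median difference of the 9 genes was 1.80, against 0.18 for all probes. These positions restate the choice of the list and are no evidence about it.

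The pattern of *Tac1* was closest to that of *Prok2*. Over 24493 probes well above background on all 4 arrays, each centered on its own mean, the distance from *Tac1* (Euclidean, on normalized log2 signals over the 4 arrays) was 0.232 to *Prok2*, 0.310 to *Lce1g*, 0.347 to *Wdfy1*, 0.356 to *Pim1* and 0.375 to *Slc16a3*. From *Prok2* it was 0.141 to *Wdfy1*, 0.232 to *Tac1*, 0.241 to *Lce1g*, 0.304 to *Slc16a3* and 0.331 to *Pim1*. *Slc16a3* encodes the lactate exporter MCT4, *Pim1* a serine/threonine kinase, *Wdfy1* an endosomal adaptor and *Lce1g* a protein of the cornified envelope. With 4 arrays in 2 groups this measure mostly ranks genes by the size of their difference, and the 4 other genes were 6.08 to 6.40 higher after OGD on the log2 scale.

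The stretches before the transcription start sites are shown next, because *Tac1* and *Prok2* moved together. They are from RefSeq on GRCm38.p6, where 8 of the 10 genes had a window (*Penk* and *Vgf* are named only). In each window the 250 bases before the start were searched on both strands. The search was for CACGTG, the E-box, and for ACGTG, which it holds. ACGTG is a form of the core of the hypoxia response element, whose form GCGTG was not searched. Also searched were the cAMP response element TGACGTCA, its shorter forms TGACGTC and TGACG, which overlap with it, and TGANTCA, the AP-1 site. Both *Tac1* and *Prok2* held a CACGTG, shown in capitals in the 250 bases before the start, read along the strand of the gene.
Tac1 chr6:7554811-7555060, forward strand: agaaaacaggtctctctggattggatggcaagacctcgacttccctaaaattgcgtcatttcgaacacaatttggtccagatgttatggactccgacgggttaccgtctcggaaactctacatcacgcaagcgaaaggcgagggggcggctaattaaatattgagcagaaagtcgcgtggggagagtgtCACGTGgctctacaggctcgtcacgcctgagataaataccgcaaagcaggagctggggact
Prok2 chr6:99726393-99726642, reverse strand: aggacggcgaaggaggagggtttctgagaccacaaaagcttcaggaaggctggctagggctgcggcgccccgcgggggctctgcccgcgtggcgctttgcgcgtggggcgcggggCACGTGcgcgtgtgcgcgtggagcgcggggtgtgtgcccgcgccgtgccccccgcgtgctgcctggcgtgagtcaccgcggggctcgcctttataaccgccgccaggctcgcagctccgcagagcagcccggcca

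The CACGTG began 61 bases before the start in *Tac1*, 135 in *Prok2* and 66 in *Cck*, and *Prok2* had TGAGTCA, an AP-1 match, at 67. The full TGACGTCA was found in *Scg2* at 68 and in *Sst* at 48 bases before the start, and TGACGTC in *Vip* at 79 and in *Adcyap1* at 91, counted from the first of its 2 starts. Of the shorter forms outside these matches, TGACG lay in *Tac1* at 197 and 43 and in *Cck* at 47, each on the opposite strand, and ACGTG in *Adcyap1* at 63 from its first start and, on the opposite strand, at 91 from its second. The surrounding bases of these windows are given with the match in capitals.
Cck chr9:121495729-121495786, reverse strand: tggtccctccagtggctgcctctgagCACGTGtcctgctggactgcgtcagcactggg
Scg2 chr1:79440061-79440120, reverse strand: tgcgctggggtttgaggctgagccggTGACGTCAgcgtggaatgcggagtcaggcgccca
Sst chr16:23890859-23890918, reverse strand: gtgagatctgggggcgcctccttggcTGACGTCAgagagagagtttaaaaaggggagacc
Vip chr10:5639113-5639171, forward strand: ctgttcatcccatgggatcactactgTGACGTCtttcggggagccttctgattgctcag
Adcyap1 chr17:93198900-93198958, forward strand: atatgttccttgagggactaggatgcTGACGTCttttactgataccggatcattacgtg

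Of 32851 windows, searched over the 250 bases before the start, 6.02% held CACGTG, 16.6% ACGTG, 1.55% TGACGTCA, 2.78% TGACGTC, 17.8% TGACG and 6.75% TGANTCA. None of these motifs was in that stretch of *Npy*. The genes with a CACGTG included the 2 with the largest differences and *Cck*, whose direction depended on the scaling, and those with a TGACGTCA or TGACGTC were *Vip*, not above background, *Sst* and *Adcyap1*, which were dim, and *Scg2* at 3.52-fold. A match of letters shows neither a binding site nor its use in these cells.

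The receptors of the 10 peptides were then examined with limma across all 28163 probes, with Benjamini–Hochberg adjustment and an adjusted p limit of 0.05. Of 25 receptor names listed, 24 were on the array and 18 could be tested, 6 of which were higher and 2 lower after OGD. Among the 21009 genes tested, each by its brightest probe, 37.1% were higher and 27.9% lower, and on the spike-in scale 3.85% and 83.4%. The median difference was 0.15, against 0.16 for all genes. On the spike-in scale 3 were higher and 14 lower. With normexp, where 17722 of the 28163 probes were higher, 13 receptors were higher and 1 lower. By their brightest probes *Tacr1*, *Cckbr* and *Npy1r* were higher by both scales, and *Prokr1* and *Adcyap1r1* lower.

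*Tacr1* showed the largest rise among the receptors tested. The processed signal of this receptor of substance P was 106 and 133 untreated and 662 and 714 after OGD, and the normalized log2 signals were −4.18 ± 0.22 and −0.27 ± 0.21 (SD, n = 2 each). The difference was 3.91 ± 0.17 (SE) with a limma adjusted p of 0.00081, or 15.0-fold, and 2.62 on the spike-in scale. *Prokr1* fell the most. It went from 316 and 318 to 14.4 and 10.3, and its normalized log2 signals were −2.76 ± 0.0057 and −6.09 ± 0.21 (SD, n = 2 each). The difference was −3.33 ± 0.13 (SE) with a limma adjusted p of 0.00076, −4.62 on the spike-in scale and −1.15 with normexp. The ligand and the receptor probes thus rose together for the pair *Tac1* and *Tacr1*, and moved apart for *Prok2* and *Prokr1*, on both scales.

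*Prokr2*, the other prokineticin receptor, was at 33.6 and 33.2 untreated and 23.0 and 15.5 after OGD. It was 0.55 ± 0.16 (SE) higher by the 75th percentile, with a limma adjusted p of 0.042, and at −0.74 on the spike-in scale. *Tacr2*, the receptor of neurokinin A, was likewise 0.47 ± 0.11 (SE) higher with a limma adjusted p of 0.023 and at −0.82 on the spike-in scale, and its other probe was at −0.31 and not past the limit. Neither *Prokr2* nor *Tacr2* passed the limit by the methods' t-test (adjusted p of 0.15 and 0.083) or without either untreated array. *Tacr3* was not well above background on any array.

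*Cckbr*, the receptor of gastrin and cholecystokinin, rose from 52.2 and 64.1 to 127 and 156, by 2.66 ± 0.22 (SE) in normalized log2 signal with a limma adjusted p of 0.0019. The spike-in scale gave 1.37. A second, dimmer probe was at 0.65 without passing the limit, and at −0.64 on the spike-in scale. *Npy1r*, a receptor of neuropeptide Y, was at 451 and 466 untreated and 626 and 486 after OGD. Its normalized log2 signal rose by 1.64 ± 0.097 (SE) with a limma adjusted p of 0.0012, and by 0.35 on the spike-in scale. *Sstr4*, a somatostatin receptor, was 0.75 ± 0.10 (SE) higher with a limma adjusted p of 0.0063, and at −0.54 on the spike-in scale.

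*Adcyap1r1*, the receptor of PACAP, which astrocytes are known to carry, went from 153 and 162 to 21.5 and 19.1. Its normalized log2 signal fell by 1.59 ± 0.077 (SE) with a limma adjusted p of 0.00092. The spike-in scale gave −2.87, and with normexp the difference was −0.12 and no longer passed the limit. *Vipr1* and *Vipr2*, which bind PACAP and vasoactive intestinal peptide alike, were at −0.01 ± 0.14 and −0.23 ± 0.083 (SE) and did not pass the limit by their brightest probes. The probes of both genes disagreed. A dimmer probe of *Vipr1* was at −1.70 with a limma adjusted p of 0.0068, and the mean over its probes at −0.85 with one of 0.020, whereas a dimmer probe of *Vipr2* was at 1.34.

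10 receptors did not pass the limit. Beside *Vipr1* and *Vipr2*, these were *Oprm1*, the mu opioid receptor, at 0.14, *Npy4r* at 0.35, *Npy6r* at 0.08, *Sstr2* at −0.11, *Sstr5* at 0.16 and 3 probes that were not well above background after OGD, those of *Sstr1* at −0.37, *Sstr3* at −1.37 and *C3ar1* at 0.17. *C3ar1*, a complement receptor, also binds a peptide cut from the VGF precursor. *Sstr3* was at least 1.26-fold lower, taking the lowest signals above background as the limit. A missed limit with 2 arrays a group does not show that a receptor stayed the same. Of the receptors not tested, *Cckar*, *Npy2r*, *Npy5r*, *Oprk1* and *Tacr3* were not well above background on any array, and *Oprd1*, the delta opioid receptor, was so on 1 OGD array only. *Ppyr1*, an older name of *Npy4r*, was the listed name without a probe.

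**Figure D3:**
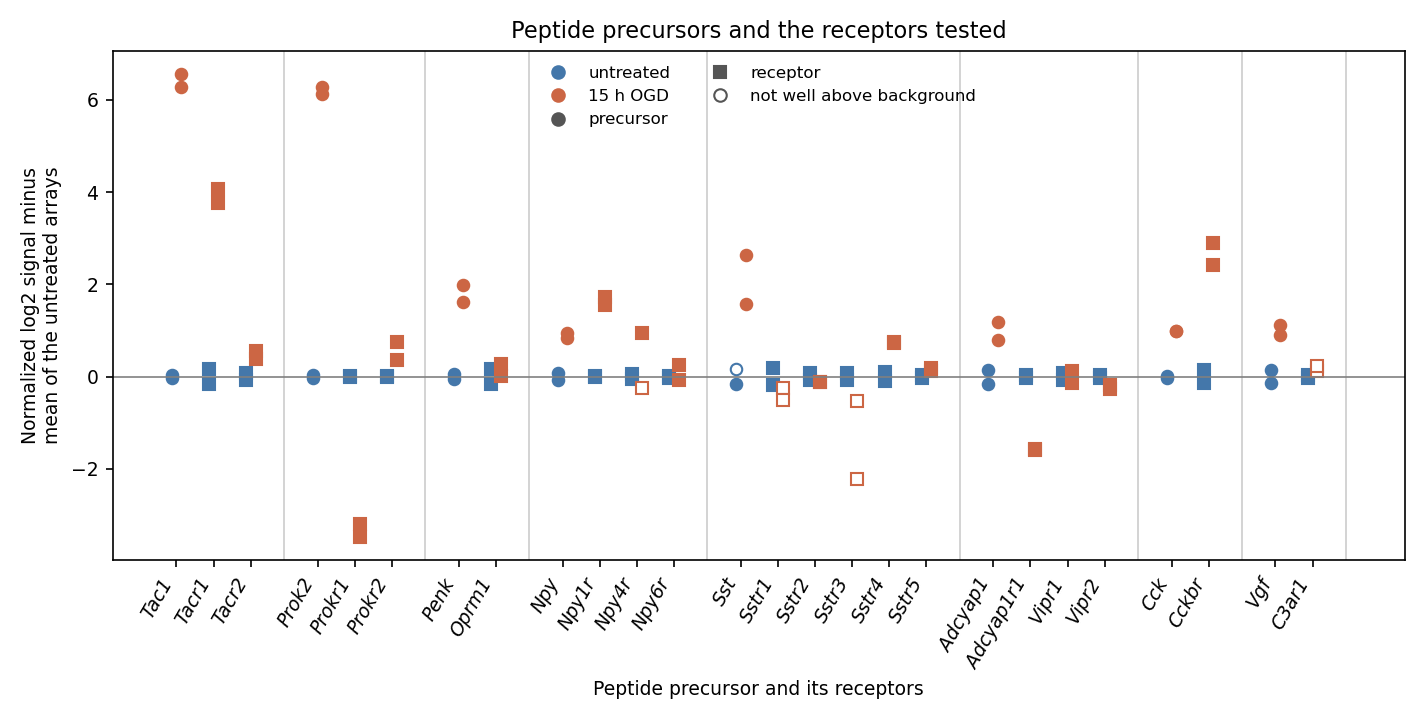
Normalized log2 signal of each array minus the mean of the untreated arrays, for each neuropeptide precursor (circles) and its tested receptors (squares), with 2 untreated and 2 OGD arrays per gene. Open symbols were not well above background. *Tacr1* lies on the same side of 0 as *Tac1*, and *Prokr1* on the side opposite to *Prok2*.

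Of 50 other neuropeptide precursor genes, all on the array, 39 were tested. After OGD 17 were higher and 3 lower, against 37.1% and 27.9% of all genes, and 4 were over 10-fold higher. The median difference was 0.44, against 0.16 for all genes. On the spike-in scale 8 were higher and 23 lower, against 3.85% and 83.4% of all genes. With normexp 32 were higher, against 17722 of 28163 probes, and by the methods' t-test 11. *Nppb*, the precursor of brain natriuretic peptide, rose from 29.6 and 16.0 to 467 and 389, by 5.66 ± 0.34 (SE) with a limma adjusted p of 0.0012. *Trh*, the precursor of thyrotropin-releasing hormone, rose from 100.2 and 103 to 459 and 555, by 3.68 ± 0.18 (SE) with a limma adjusted p of 0.00093. *Ucn*, the precursor of urocortin, a peptide related to corticotropin-releasing hormone, rose from 11.47 and 10.9 to 46.7 and 59.9, by 3.61 ± 0.21 (SE) with a limma adjusted p of 0.0012. These rises held on the spike-in scale, at 4.37, 2.40 and 2.33.

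The 3 precursors that fell were *Nps*, *Pomc* and *Cort*. *Nps*, the precursor of neuropeptide S, went from 856 and 982 to 143 and 99.9, a difference of −1.57 ± 0.15 (SE) with a limma adjusted p of 0.0026. *Pomc*, the precursor of corticotropin and beta-endorphin, differed by −0.92 ± 0.14 (SE), with a limma adjusted p of 0.0082, but did not pass the limit by the methods' t-test (adjusted p of 0.064). *Cort*, which encodes cortistatin, a peptide close to somatostatin, differed by −0.76 ± 0.11 (SE), with a limma adjusted p of 0.0065, but was at 0.04 with normexp.

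Of 21 granin and dense-core vesicle genes, 19 were tested, of which 9 were higher and 5 lower, against 37.1% and 27.9% of all genes, with a median of 0.24 against 0.16. Scaling by the spike-ins left 1 higher and 15 lower, against 3.85% and 83.4% of all genes. *Syt4*, a synaptotagmin of dense-core vesicles, rose from 34.6 and 36.7 to 87.4 and 98.3, by 2.75 ± 0.15 (SE) with a limma adjusted p of 0.0010, and by 1.46 on the spike-in scale. *Chgb*, chromogranin B, and *Scg5*, the chaperone of the convertase PC2, were higher by 1.21 ± 0.087 and 1.04 ± 0.10 (SE) by the 75th percentile (limma adjusted p of 0.0015 and 0.0028), and at −0.08 and −0.25 on the spike-in scale. Like *Vgf*, *Scg5* therefore changed direction with the scaling. The processed signals of *Chgb* overlapped, at 5182 and 5730 untreated and 5186 and 4576 after OGD. *Ccdc186*, *Cadps* and *Hid1*, which act in the making or priming of dense-core vesicles, were lower by both scales. Their differences were −1.22 ± 0.080, −0.93 ± 0.093 and −0.73 ± 0.091 (SE), with limma adjusted p of 0.0014, 0.0029 and 0.0047, while a second probe of *Ccdc186* was at 0.15.

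All 15 genes of precursor processing enzymes were tested, of which 10 were higher and 3 lower (5 higher by the methods' t-test, and 4 and 3 by limma without the first and the second untreated array), against 37.1% and 27.9% of all genes, with a median of 0.68 against 0.16. With the spike-ins as the scale, 0 were higher, also at an unadjusted p under 0.05, and 12 lower by limma, against 3.85% and 83.4% of all genes. *Cpe*, carboxypeptidase E, the main trimming enzyme of neuropeptides, was at 177212 and 158635 untreated and 137530 and 137905 after OGD, and its normalized log2 signal was 1.09 ± 0.12 (SE) higher with a limma adjusted p of 0.0036, against −0.20 on the spike-in scale and 0.05 with quantile normalization. *Pam*, the amidating enzyme that completes substance P and neuropeptide Y, was 1.01 ± 0.086 (SE) higher with a limma adjusted p of 0.0021, against −0.28 on the spike-in scale, and its dimmer probe was at 3.30. *Pcsk4*, a convertase best known from the testis, was 0.82 ± 0.11 (SE) higher with a limma adjusted p of 0.0058, against −0.47. *Pcsk6*, *Furin* and *Rnpep*, 2 convertases of the constitutive pathway and aminopeptidase B, were lower by both scales, at −0.75 ± 0.094, −0.62 ± 0.097 and −0.29 ± 0.075 (SE), with limma adjusted p of 0.0049, 0.0083 and 0.031. *Furin* did not pass the limit without the first untreated array (adjusted p of 0.067), and *Rnpep* without either untreated array (0.16 and 0.20), without the first OGD array (0.057), with the replicate block (0.072), with median scaling (0.080) or with no filter (0.068).

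Of 13 genes of peptide-degrading peptidases, 11 were tested, of which 7 were higher and 0 lower by limma (1 lower at an unadjusted p under 0.05 and 1 by the methods' t-test, which called 4 higher, as did limma without the first untreated array), against 37.1% and 27.9% of all genes, with a median of 0.49 against 0.16. By the spike-ins 0 were higher by limma, also at an unadjusted p under 0.05, and 8 lower, against 3.85% and 83.4% of all genes. *Mme*, neprilysin, which cleaves substance P and the enkephalins, was at 627 and 641 untreated and 673 and 611 after OGD, so its processed signals overlapped. Its normalized log2 signal was 1.39 ± 0.076 (SE) higher with a limma adjusted p of 0.0010, and it was at 0.10 on the spike-in scale, where it did not pass the limit (adjusted p of 0.40). *Ece2*, an endothelin-converting enzyme, and *Lnpep*, a membrane aminopeptidase, were 1.15 ± 0.10 and 1.103 ± 0.081 (SE) higher with limma adjusted p of 0.0023 and 0.0016, against −0.14 and −0.19 on the spike-in scale.

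**Figure D4:**
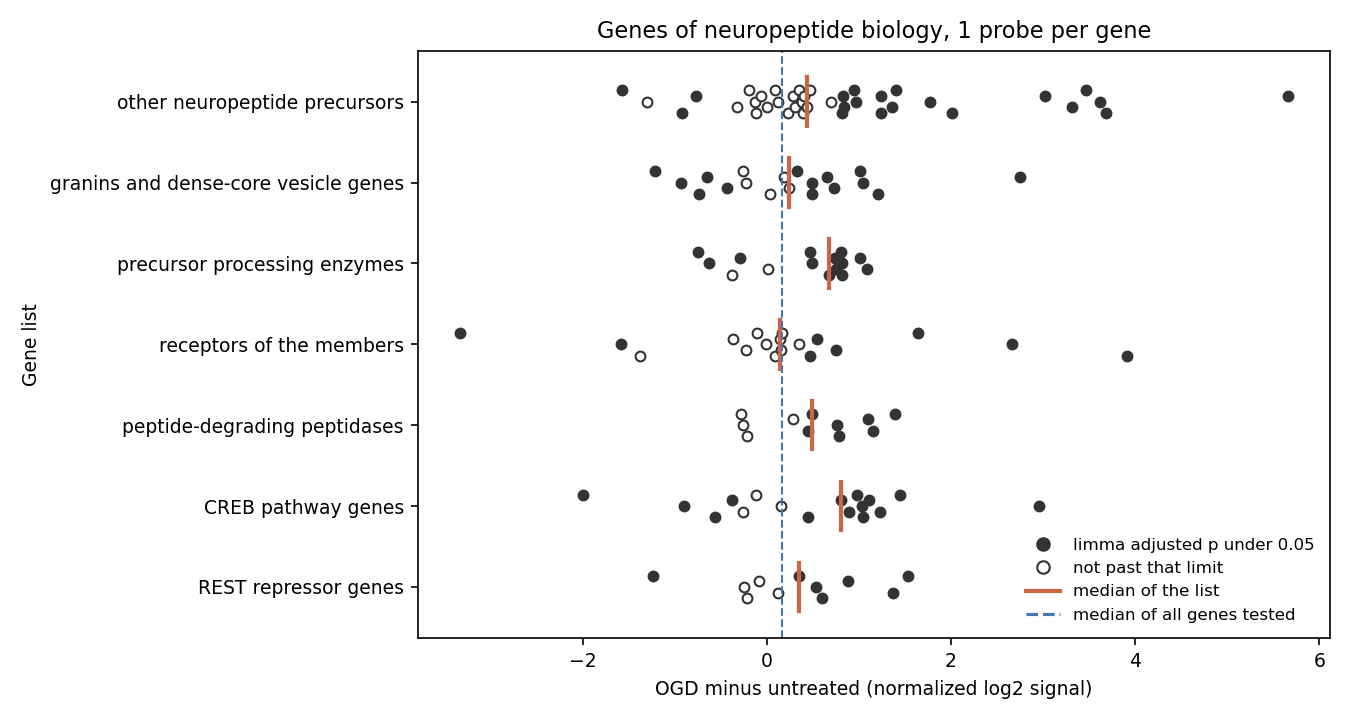
Log2 difference between OGD and untreated AECs by the 75th percentile for the tested genes of each list, 1 point per gene, filled where limma's adjusted p was under 0.05, with the median of the list as a bar and that of all genes as a dashed line. The medians lie between 0.15 for the receptors and 0.80 for the CREB pathway genes, and the median of all genes is 0.16.

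The regulators that are known to act on neuropeptide genes were looked at as well. Of 17 CREB pathway genes, 10 were higher and 4 lower, against 37.1% and 27.9% of all genes, with a median of 0.80 against 0.16. Scaled by the spike-ins, 1 was higher and 10 were lower, against 3.85% and 83.4%. *Sik2*, a kinase that restrains the CREB coactivators, rose from 2573 and 2661 to 8269 and 7469, by 2.96 ± 0.076 (SE) with a limma adjusted p of 0.00072, and by 1.67 on the spike-in scale. *Sik1*, of the same family and itself a target of CREB, was 1.45 ± 0.15 (SE) higher with a limma adjusted p of 0.0032, and at 0.16 on the spike-in scale, where it did not pass the limit (adjusted p of 0.35). *Creb1* was 1.23 ± 0.085 (SE) higher by its brightest probe, with a limma adjusted p of 0.0015, but at −0.05 on the spike-in scale and −1.26 by its other probe. The coactivator genes *Crtc1*, *Crtc3* and *Ep300* were lower by both scales, at −2.001 ± 0.092, −0.89 ± 0.079 and −0.56 ± 0.11 (SE), with limma adjusted p of 0.00085, 0.0022 and 0.015. *Ep300* did not pass the limit by the methods' t-test (adjusted p of 0.072) or with normexp (−0.22, adjusted p of 0.071). Other coactivator genes, named after their values were seen, went the other way by the 75th percentile, *Crtc2* at 1.03 and *Crebbp* at 0.89 (limma adjusted p of 0.0016 and 0.0066), but were at −0.26 and −0.40 on the spike-in scale, and a second probe of *Crebbp* was at −0.54.

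Of 11 genes of the REST repressor, which silences neuronal genes including several neuropeptide precursors outside neurons, 6 were higher and 1 lower, against 37.1% and 27.9% of all genes, with a median of 0.35 against 0.16. Scaled by the spike-ins, 0 were higher by limma, also at an unadjusted p under 0.05, and 9 lower, against 3.85% and 83.4%. *Rest* was at 2376 and 2406 untreated and 3005 and 2384 after OGD, and its normalized log2 signal was 1.54 ± 0.090 (SE) higher with a limma adjusted p of 0.0011, and it was at 0.25 on the spike-in scale, where it did not pass the limit (adjusted p of 0.11). *Rcor2* and *Rcor1*, corepressors of REST, were 1.37 ± 0.12 and 0.88 ± 0.076 (SE) higher with limma adjusted p of 0.0024 and 0.0021, and at 0.08 and −0.41 on the spike-in scale. *Phf21a*, a reader of unmethylated histone H3 in the same complex, differed by −1.23 ± 0.10 (SE) with a limma adjusted p of 0.0019.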

How the data were processed

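AECs were either untreated (2 arrays) or exposed to 15 h of OGD (2 arrays). Per the labels, the authors extracted total RNA, labeled it with Cy3 and read each array with Agilent Feature Extraction 11.5.1.1. The deposited values are the processed signal, an intensity per spot after background subtraction, with flags for detection above background, saturation and outliers, and they are not normalized between arrays. The authors' series table holds the same signals (44397 rows, largest relative difference 0). Control spots and outlier spots (119 to 132 per array) were left out, log2 signals of the same probe were averaged, and the 75th percentile of each array was subtracted. Probes well above background (at least 0.5 of their spots) on both arrays of a group were kept, 28163 of 39429, after leaving out 99 without a value on every array. The OGD and untreated arrays were set against each other in R 4.3.3 with limma 3.58.1 (lmFit, eBayes), with Benjamini–Hochberg adjustment over these probes. A gene is represented by its brightest probe.

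The 10 neuropeptide genes and the lists were chosen with earlier results of these data known, so the 10 genes were not tested. All of them and all their receptors are named, and of each other list the 3 genes with the largest rise and fall past the limit. Lists are given by counts and medians beside those of all genes. Alternatives were the background correction, scaling, filter, outlier spots, test, replicate block, choice of probe and leaving out each array. The steps were checked on simulated data. Sequences and motifs were read with Python 3.11.15 and pandas 2.3.3 from RefSeq promoter windows, and all 10 probe accessions matched their RefSeq symbol.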

Additional observations from a re-analysis of the deposited data

How the results depend on the processing

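On the spike-in scale 1263 probes were higher and 23105 lower after OGD, in place of 10689 and 7645. The counts higher and lower there were 8 and 23 for the other precursors, 1 and 15 for granins and vesicle genes, 0 and 12 for processing enzymes, 3 and 14 for receptors, 0 and 8 for peptidases, 1 and 10 for the CREB pathway and 0 and 9 for the REST repressor, and of the 10 neuropeptide genes 5 lay above and 3 below the untreated arrays. The differences that turned negative on this scale were those of *Npy* (−0.39), *Adcyap1* (−0.30), *Vgf* (−0.27), *Cck* (−0.30), *Chgb* (−0.077), *Scg5* (−0.25), *Cpe* (−0.20), *Pam* (−0.28), *Pcsk4* (−0.47), *C3ar1* (−1.12), *Npy4r* (−0.94), *Npy6r* (−1.20), *Oprm1* (−1.15), *Prokr2* (−0.74), *Sstr4* (−0.54), *Sstr5* (−1.13), *Tacr2* (−0.82), *Ece2* (−0.14), *Lnpep* (−0.19), *Creb1* (−0.054), *Rcor1* (−0.41), *Crtc2* (−0.26) and *Crebbp* (−0.40). With normexp 17722 probes were higher, as were 32 other precursors and 13 receptors, while 1 receptor and 2 REST genes were lower. Named differences that turned positive there included those of *Cort* (0.044), *Sstr1* (1.14), *Sstr3* (0.92), *Vipr1* (0.95), *Vipr2* (0.18), *Dlx1* (0.054) and *Rbfox3* (0.90). The cause was not tested.

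The methods' t-test, which did not pass *Pomc* (adjusted p = 0.064), *Ep300* (0.072), *Prokr2* (0.15) and *Tacr2* (0.083), called 11 other precursors, 5 processing enzymes and 4 peptidases higher, and 1 peptidase and 2 REST genes lower. Peptidases called lower, 0 above, were 2 with the 75th percentile over detected probes and 1 each with the stricter filter, with outlier spots kept and with the mean over probes. REST genes called lower were 3 with that percentile, with quantile normalization and with limma's trend and robust prior, and 2 with the stricter filter. *Npy6r* (−0.068) and *Oprm1* (−0.012) turned negative with that percentile, and with the mean over probes *Oprm1* was at −0.030, *Vipr2* at 0.55 and *Creb1* at −0.015. Leaving out 1 array turned *Npy4r* (−0.25, without the second OGD array), *Npy6r* (−0.076 to 0.25, turned without the first OGD array), *Oprm1* (−0.029 to 0.31, turned without the second untreated array) and *Vipr1* (−0.15 to 0.13, turned without the first untreated array, at 0.071, and without the second OGD array).

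Without 1 array, where the lone array of a group is taken to vary like the other group, 5885 to 11019 probes were higher and 4827 to 8133 lower. The counts higher and lower were 13 to 18 and 1 to 4 for the other precursors, 5 to 10 and 2 to 7 for granins and vesicle genes, 3 to 10 and 1 to 4 for processing enzymes, 4 to 7 and 2 to 3 for receptors, 4 to 6 and 0 to 0 for peptidases, 9 to 10 and 2 to 4 for the CREB pathway, and 3 to 6 and 1 to 1 for the REST repressor. The lowest counts of probes came without 1 of the untreated arrays (6738 higher and 4827 lower without the first, 5885 and 4868 without the second), as did the fewest processing enzymes higher (4 and 3) and granins and vesicle genes higher (5 and 5). Without the second untreated array *Pomc* (adjusted p = 0.060 by limma), *Hid1* (0.050) and *Pcsk4* (0.050) no longer passed the limit, without the first *Furin* (0.067), and without either *Cort* (0.055 and 0.051), *Ep300* (0.0998 and 0.065), *Prokr2* (0.14 and 0.17), *Rnpep* (0.16 and 0.20) and *Tacr2* (0.081 and 0.14). *Prokr2* was further lost with quantile normalization (0.086), the percentile over detected probes (0.084), trend and robust prior (0.062) and no filter (0.065), and *Tacr2* with quantile normalization (0.053), that percentile (0.072) and the mean over probes (0.46). On the spike-in scale *Mme*, *Sik1*, *Rest* and *Rcor2* kept their direction but did not pass. *Rnpep* (0.057) was also lost without the first and *Tacr2* (0.052) without the second OGD array. Without the first OGD array the difference of *Npy4r* was 0.95. That of *Sstr3* was −2.21 without the first and −0.53 without the second OGD array, from OGD signals not well above background. With the scaling of the Results, all 9 neuropeptide genes stayed above the untreated arrays when 1 array was left out. This outcome was fixed, since each array was scaled on its own and both OGD arrays already lay above both untreated arrays. It is therefore no test of how stable the direction is.

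Samples with the same replicate number share only that number, and their deviations from the group means were not correlated above 0.1 (−0.06 over probes). With the replicate block 9909 probes were higher and 7289 lower, and the higher and lower counts were 18 and 3, 8 and 5, 10 and 2, 5 and 2, 6 and 0, 10 and 4, and 5 and 1 in the order of the lists above. Of the genes named, *Rnpep* and *Tacr2* were lost under the block, and it changed no other call. The choice of probe could not change the 10 neuropeptide genes, which have 1 probe each. Without a filter 10 of them lay above the untreated arrays, the added *Vip* being at background throughout, and with the stricter filter, which removed *Sst*, 8. Precision is limited by 2 arrays per group and, for *Sst*, *Adcyap1* and the untreated levels of *Tac1* and *Prok2*, by signals near background.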

Other observations

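The other precursor genes below lay outside the rule for named genes and were chosen after their values were seen. *Cartpt*, the precursor of the CART peptides, was the fourth precursor over 10-fold higher after OGD, with processed signals of 71.9 and 68.6 untreated and 290 and 308 after OGD and a log2 difference of 3.46. *Gal*, the precursor of galanin, went from 493 and 492 to 1786 and 2000, a log2 difference of 3.31. *Nppc*, which encodes C-type natriuretic peptide, went from 1560 and 1640 to 2532 and 2457, a log2 difference of 2.01. On the spike-in scale these differences were 2.18, 2.02 and 0.73. *Prok1*, the paralog of *Prok2*, did not stand above background in untreated AECs and was at 9.20 and 19.2 after OGD by its brighter probe, at least 5.05-fold higher after OGD against the lowest signals above background by the 75th percentile and at least 2.07-fold by the spike-ins. With the first OGD array alone the former bound was 3.27-fold and with the second 7.79-fold. The lowest signals above background were 6.33 to 7.34 on the 4 arrays. The second *Prok1* probe was not well above background on any array, at 1.36 and 1.69 after OGD.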
